A study of Mus musculus with 4 samples.

Results

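The minichromosome maintenance (MCM) genes encode the core of the DNA helicase that opens the genome for replication. The 9 genes described here were taken by name from the deposited gene table, out of 23361 genes in all: the ring subunits Mcm2, Mcm3, Mcm4, Mcm5, Mcm6 and Mcm7, and the further family members Mcm8, Mcm9 and Mcm10. All 9 passed the filter on low counts and were among the 12987 genes tested. RNA was sequenced from cultured mammary tumour cells (strain C3HeB/FeJ) that derive from the Chaos3 mouse, whose Mcm4 gene carries a point mutation. All 4 libraries share that origin: 2 came from the line 23116 MT (the control, labelled Low Arid1a) and 2 from AB-C1 and AB-C2, clones of that line transduced with a lentivirus for over-expression of Arid1a (labelled High Arid1a). Each clone gave 1 library, and the labels name no clone made with an empty vector. The groups are called Low and High below. The library numbers 1 and 2 only name the libraries, since the table does not say which High library is which clone. The table counts fragments per gene, so transcripts of a mutant Mcm4 allele and of a normal one, if present, are not told apart.

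In the G1 phase, the origin recognition complex, CDC6 and CDT1 load rings of MCM2 to MCM7 onto DNA as an inactive complex. At the start of S phase, the kinases CDK2 and DBF4-dependent CDC7 help CDC45 and the GINS complex to join the ring, which then unwinds DNA ahead of the polymerases. MCM10 binds the assembled helicase and is needed for its activation, while MCM8 and MCM9 form a separate complex that acts in homologous recombination and is not loaded with the ring. Transcription of the ring genes is a known target of E2F factors, and Chaos3 mice are known for mammary tumours that follow from a weakened MCM4.

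Since E2F factors are known regulators of the ring genes, the letters around the members' start sites were compared first. RefSeq promoter windows (build GRCm38.p6, 250 bases before to 50 bases after the start) were found for 8 of the 9 genes, all but Mcm4. An E2F core was searched on both strands in 4 spellings: TTCCCGC (held by Mcm3 and Mcm7), TTGGCGC (held by Mcm3, Mcm5, Mcm6, Mcm7 and Mcm8), TTCGCGC (held by Mcm5, Mcm6 and Mcm7) and TTGCCGC (held by no member). At least 1 of them stood in a window of 5 of these 8 genes, against 10.9% of the 27025 genes with windows. Matches on the opposite strands can overlap and were counted separately. The letters CCAAT were present for 8 of 8 (41.1% of all genes), GGGCGG for 7 of 8, with Mcm5 lacking them (38.2%), and TTTGAA for 1 of 8, Mcm2 (20.2%). In the first window of Mcm7 and that of Mcm3, Mcm5 and Mcm6, a CCAAT or a second E2F core can share bases with an E2F core, so the motif counts are not independent. The 4 windows below are shown because these genes stand for the patterns described further on: Mcm3 and Mcm10 were below Low in both High libraries, Mcm5 followed Mcm2 and Mcm7, and Mcm6 did not. Capitals mark the bases of E2F cores on either strand, of which Mcm3 has 3, Mcm5 3, Mcm6 5 and Mcm10 0.
Mcm3, minus strand of chr1:20820263-20820562: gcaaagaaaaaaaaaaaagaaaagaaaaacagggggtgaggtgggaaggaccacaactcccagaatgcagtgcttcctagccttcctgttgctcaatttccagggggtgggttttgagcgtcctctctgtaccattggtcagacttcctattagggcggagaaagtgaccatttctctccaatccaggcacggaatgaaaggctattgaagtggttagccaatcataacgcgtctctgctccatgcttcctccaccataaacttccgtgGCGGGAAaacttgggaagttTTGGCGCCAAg
Mcm5, plus strand of chr8:75109259-75109558: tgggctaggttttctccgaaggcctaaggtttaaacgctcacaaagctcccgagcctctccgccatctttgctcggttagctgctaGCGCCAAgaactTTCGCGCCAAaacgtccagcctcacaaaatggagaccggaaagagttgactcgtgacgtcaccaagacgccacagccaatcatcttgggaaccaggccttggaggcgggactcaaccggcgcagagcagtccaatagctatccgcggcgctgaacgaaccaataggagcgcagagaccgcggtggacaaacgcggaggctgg
Mcm6, minus strand of chr1:128359656-128359955: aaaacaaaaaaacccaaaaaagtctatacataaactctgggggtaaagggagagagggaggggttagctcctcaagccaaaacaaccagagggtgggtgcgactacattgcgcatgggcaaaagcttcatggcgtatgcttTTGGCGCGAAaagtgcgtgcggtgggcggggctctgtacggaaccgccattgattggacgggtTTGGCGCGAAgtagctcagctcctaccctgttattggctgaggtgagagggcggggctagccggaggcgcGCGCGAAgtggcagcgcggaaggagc
Mcm10, minus strand of chr2:5012742-5013041: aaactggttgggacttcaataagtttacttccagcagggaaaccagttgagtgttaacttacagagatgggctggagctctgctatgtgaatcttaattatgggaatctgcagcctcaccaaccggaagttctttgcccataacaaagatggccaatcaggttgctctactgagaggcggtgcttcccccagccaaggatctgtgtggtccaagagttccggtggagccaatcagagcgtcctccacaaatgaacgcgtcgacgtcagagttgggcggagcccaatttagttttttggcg
A match describes letters only. The Mcm10 window ends in TTGGCG, the start of the core TTGGCGC, so a core running past its edge would not be counted. The absence of these letters from the Mcm10 window says nothing about the factor.

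The libraries held 13889858 to 28110812 fragments, of which 0.135% to 0.174% fell in the 9 genes. CPM below are fragment counts scaled by library size with TMM factors. The deposited conditions are named Ctl and Arid1a, and were taken as Low and High. Arid1a itself, which checks the labels, was at 82.2 and 94.2 CPM in Low, against 49.8 and 58.3 CPM in High, opposite to the labels (log2 fold change -0.71 ± 0.23 SE, edgeR adjusted p = 0.165). Its estimate was below 0 in all 13 alternatives described further on (-0.83 to -0.59). Whether the vector's transcript was counted as Arid1a is not given in the sources used here, so each direction below is that of the libraries labelled High. The defining markers of mammary epithelium were present except Krt5, which was at most 1.02 CPM. The 6 epithelial markers summed to 1640 to 2380 CPM in Low, against 2060 to 4730 CPM in High. The 6 fibroblast markers, with Lum at 0 throughout, summed to 4770 to 5300 CPM in Low, against 165 to 1090 CPM in High. The 4 endothelial and 4 adipocyte markers each summed to at most 0.732 CPM in every library, with Plin1 and Lep at 0. Of leukocyte markers, Ptprc was at most 0.293 CPM and Itgam at most 0.122 CPM, and Cd3e and Emr1 were at 0. The epithelial sums overlap, and Krt8 and Krt18 were lowest in High library 1 (224 and 184 CPM). The fibroblast sums were carried by Col1a1 and Col3a1, while Dcn went the other way, from 4.19 and 5.45 to 195 and 19.6 CPM, and Pdgfra was highest in High library 1 (234 CPM). The part of these markers in the MCM values was not tested.

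Levels of different genes were compared in FPKM, which allows for transcript length. In the Low libraries the order from highest to lowest was Mcm7 (144 ± 16.1 FPKM, SD, n = 2), Mcm6 (121 ± 8.17), Mcm3 (97 ± 10.7), Mcm5 (76.8 ± 11.9), Mcm4 (69.9 ± 4.94), Mcm2 (68.9 ± 7.91), Mcm10 (23.1 ± 0.758), Mcm8 (5.62 ± 0.258) and Mcm9 (2.59 ± 0.0712). The ranges of Mcm5 and Mcm4, and of Mcm4 and Mcm2, overlapped, and the other neighbours in this order did not. In the High libraries the means ran Mcm7 (123 ± 25.5 FPKM), Mcm6 (122 ± 23.4), Mcm5 (68.1 ± 18.4), Mcm2 (65.1 ± 18.9), Mcm3 (58.4 ± 11.2), Mcm4 (43.8 ± 3.19), Mcm10 (12.6 ± 2.99), Mcm8 (4.36 ± 1.21) and Mcm9 (2.88 ± 1.26). Here the ranges of Mcm7 and Mcm6, of Mcm5 and Mcm2, of Mcm2 and Mcm3, and of Mcm8 and Mcm9 overlapped. Mcm3 was number 3 in the Low order and number 5 in the High order. Mcm4 was the lowest ring subunit in both High libraries and also in Low library 1 (66.4 FPKM). In Low library 2 the lowest was Mcm2 (63.3 FPKM, against 73.4 for Mcm4). The mean ring subunit was 14.2 to 24.7 times the level of Mcm8 and 22.9 to 37.9 times that of Mcm9 in FPKM.

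**Figure D1:**
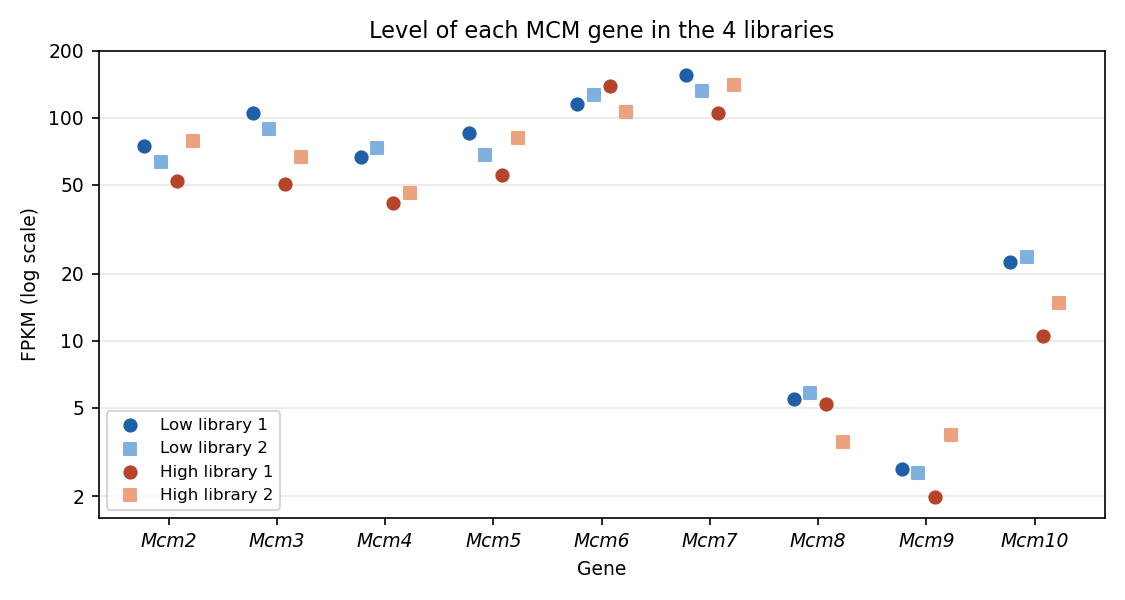
FPKM of each MCM gene (log axis) in the 4 libraries, with 1 point per library (blue, labelled Low; red, labelled High; circles, library 1; squares, library 2). For Mcm3, Mcm4, Mcm8 and Mcm10 both red points lie below both blue points, while for Mcm2, Mcm6 and Mcm9 the red points lie on either side of the blue ones.

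The question put to these genes was whether they differed between the libraries labelled Low and High. None of the 9 passed edgeR's test over all genes, where 321 of 12987 genes (2.47%; 1.14% higher and 1.33% lower in High) did, and 3 members (Mcm3, Mcm4 and Mcm10) had an unadjusted p under 0.05, all lower in High, against 8.16% of all genes lower and 9.92% higher at that level (18.1% in all). DESeq2 called 2 members lower, Mcm4 and Mcm10 (8.75% of all genes called, 4.04% lower), limma-voom 0 (1.67%) and limma on log2(FPKM + 1) 0 (1.94%). The members called were likewise 0 with no filter on low counts (4.88% of genes called), a smallest count of 50 (3.55%), RLE factors (2.47%), library totals (2.69%), log2(FPKM + 0.1) (2.03%), the replicate block (3.61%) and without High library 1 (16.3%). Without High library 2 they were 2, Mcm3 and Mcm10 (18.6% of genes called, 8.05% lower), and without either Low library 0, as for all genes (0%). When a library is left out, the other group's pair alone gives the spread: the closer Low pair without a High library, the wider High pair without a Low one. Both High libraries lay below both Low libraries for 4 of 9 members, against 25.1% of all genes, and above them for 0 of 9, against 25.9%. Among the 4 is Mcm8, at 15.8 CPM in High library 1 against 16.4 CPM in Low library 1, within counting error. The estimate was below 0 for 7 of 9 members (47.8% of all genes), under TMM, RLE and library-total scaling alike, and for 6 to 8 with 1 library left out. The median log2 fold change of the 9 was -0.22, against 0.03 over all genes tested. It moved to -0.096 without Low library 1 and to -0.45 without High library 2. In such RNA, fewer cells that express a gene and less RNA per cell cannot be told apart. Nothing in the labels says whether the Low duplicates are separate cultures, so their part of the spread behind the p-values may be technical, while the High part lies between clones.

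Mcm4, the subunit mutated in Chaos3 (ENSMUSG00000022673.5, chromosome 16, 15623897 to 15637400, minus strand, in build mm10), was at 226 and 250 CPM in Low, against 143 and 158 CPM in High. Counts of 3082, 6842, 2444 and 3880 fragments underlie these levels. The High libraries stood close together and below both Low libraries, at 150 ± 10.7 against 238 ± 16.9 CPM (SD, n = 2 each). The log2 fold change was -0.66 (95% interval -1.17 to -0.16), 1.59-fold lower, short of edgeR's threshold (adjusted p = 0.171). It passed with DESeq2 (adjusted p = 0.0392, range over 13 alternatives 0.0392 to 0.870), and the estimate was below 0 in all 13.

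Mcm3, whose product lies beside MCM5 in the ring (chromosome 1, 20802968 to 20820312, minus strand), was at 282 and 242 CPM in Low, against 138 and 181 CPM in High. The High libraries were again lower without overlap, by a log2 fold change of -0.72 (95% interval -1.28 to -0.16) that did not pass (edgeR adjusted p = 0.179). Without High library 2 it did pass (log2 fold change -0.94, adjusted p = 0.0199, range over 13 alternatives 0.0199 to 0.839). In the promoter shown above, the 3 E2F cores of Mcm3 begin at bases 20, 40 and 43 counted from the RefSeq start.

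The other ring subunits overlapped between the groups or had their High libraries on either side of the Low pair. Mcm2 (chromosome 6, 88883474 to 88898780, minus strand), the subunit that also binds histones, was at 237 and 202 CPM in Low, against 166 and 252 CPM in High. One High library was below and the other above both Low libraries, and the log2 fold change was -0.07 (95% interval -0.69 to 0.55). Mcm5 (chromosome 8, 75109569 to 75128439, plus strand), which forms with MCM2 the gate through which DNA enters the ring, had 276 and 222 CPM in Low, against 180 and 265 CPM in High. The groups overlapped, with a log2 fold change of -0.16 (95% interval -0.78 to 0.46).

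Mcm7 (chromosome 5, 138164583 to 138172422, minus strand), which forms a helicase core with MCM4 and MCM6, was at 343 and 293 CPM in Low, against 234 and 314 CPM in High. These values overlapped too, with a log2 fold change of -0.22 (95% interval -0.78 to 0.35). Its exons share 321 bases with those of Ap4m1 and 64 with those of Cops6, both on the opposite strand, and the strand setting of the authors' counting is not given in the sources used here, so its counts carry that uncertainty. Mcm6 (chromosome 1, 128331590 to 128359664, minus strand), another part of that core, was at 312 and 344 CPM in Low, against 380 and 289 CPM in High. High library 1 was the highest of the 4 and High library 2 the lowest, so the group difference was near 0 (log2 fold change 0.03, 95% interval -0.52 to 0.58). For these 4 subunits the intervals reach well to both sides of 0, so the groups are not shown to be alike.

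Outside the ring, Mcm10 (chromosome 2, 4989714 to 5012791, minus strand) had the largest group difference of the 9. It was at 74.9 and 78.4 CPM in Low, against 35.2 and 49.2 CPM in High. Both High libraries were well below the Low pair (42.2 ± 9.91 against 76.6 ± 2.53 CPM, SD, n = 2 each), 1.82-fold lower by a log2 fold change of -0.86 (95% interval -1.45 to -0.27). This missed edgeR's threshold (adjusted p = 0.134) and passed with DESeq2 (0.0383) and without High library 2 (0.00266, range over 13 alternatives 0.00266 to 0.850).

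Mcm8 and Mcm9, the recombination pair, had few fragments and went apart in High library 2. Mcm8 (chromosome 2, 132816141 to 132844197, plus strand) had 223, 478, 271 and 261 fragments, or 16.4 and 17.5 CPM in Low, against 15.8 and 10.6 CPM in High. High library 2 was the lowest, with a counting interval (95%, exact Poisson) of 9.38 to 12 CPM. The intervals of High library 1 (14 to 17.8 CPM) and Low library 1 (14.3 to 18.7 CPM) overlapped. Such intervals cover counting error only and not the spread between samples. The group difference was -0.36 on the log2 scale (95% interval -1.13 to 0.41). Mcm9 (chromosome 10, 53536315 to 53630439, minus strand) had 133, 257, 127 and 345 fragments, or 9.77 and 9.4 CPM in Low, against 7.42 and 14 CPM in High. High library 2 was the highest and High library 1 the lowest, with a log2 fold change of 0.17 (95% interval -0.79 to 1.12). The log2 ratio of Mcm9 to Mcm8 was -0.75 and -0.90 in Low, -1.09 in High library 1 and 0.40 in High library 2. Exons of Mcm9 share 1748 bases with those of Asf1a, a histone chaperone gene on the opposite strand, so its counts are uncertain. Asf1a, looked up after the Mcm9 values were seen, was at 38.1 and 47.9 CPM in Low, against 30.5 and 30.9 CPM in High. To which gene the fragments in the shared bases were assigned was not tested.

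Each High library was then set against the Low pair in a fit with 3 groups, on the assumption that 1 High library on its own has the spread of the Low duplicates. The coefficient of variation was 17.3% in the Low pair and 42.4% between the High libraries, which goes against that assumption, so the p-values of this fit may be too small. In High library 1, Mcm10 was 2.18-fold lower (adjusted p = 0.00295) and Mcm3 1.9-fold (adjusted p = 0.0202), past edgeR's threshold under that assumption. These are 2 of 9 members where 18.9% of all genes were called in either direction and 8.19% lower. Mcm4 was 1.67-fold lower in that library and missed it (adjusted p = 0.0778). Mcm2, Mcm5 and Mcm7 had log2 fold changes of -0.40, -0.47 and -0.44, and Mcm6 of 0.21, none passing. In High library 2, 0 of 9 members passed, where 17.3% of all genes did, and Mcm10 was 1.56-fold lower (adjusted p = 0.137). Mcm4 was 1.51-fold lower there (adjusted p = 0.191) and Mcm3 1.45-fold (0.248), while Mcm2, Mcm5 and Mcm7 were at log2 fold changes of 0.20, 0.09 and -0.02, the last turning to 0.031 with scaling by library totals. Mcm8 had log2 fold changes of -0.10 in High library 1 and -0.67 in High library 2, Mcm9 of -0.37 and 0.55, none passing. Both comparisons use the same Low libraries, so they are not independent.

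**Figure D2:**
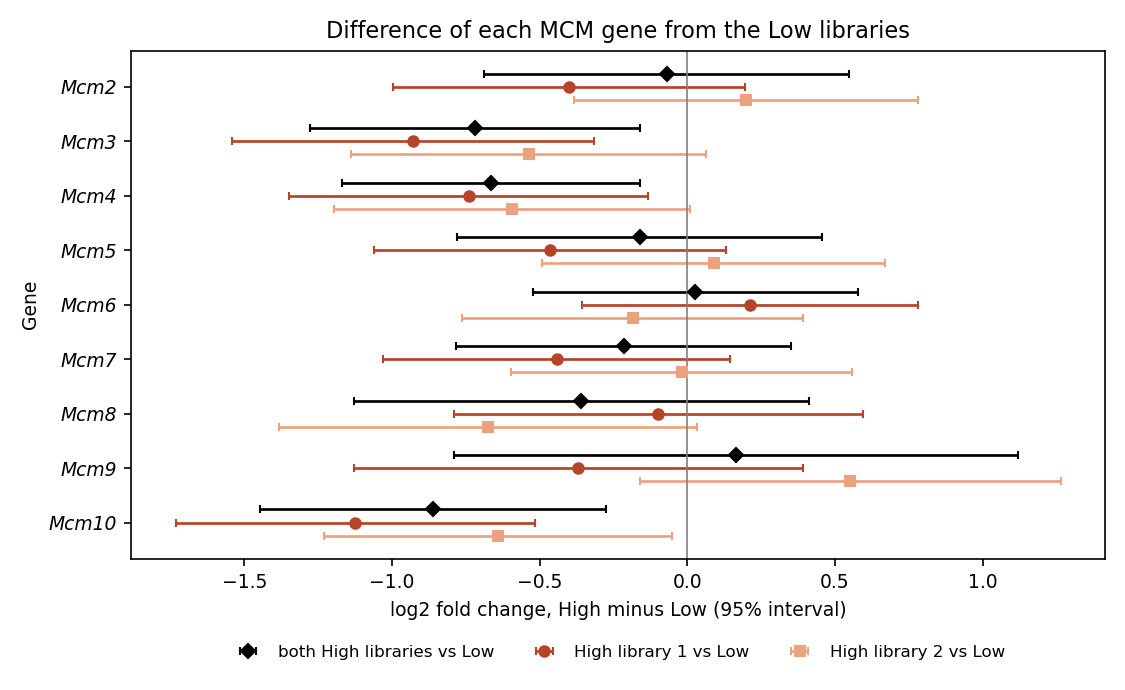
Log2 fold change of each MCM gene from the Low libraries with its 95% interval: black diamonds, both High libraries (fit with 2 groups); dark red circles, High library 1; light red squares, High library 2 (fit with 3 groups). Mcm3, Mcm4 and Mcm10 lie below 0 in all 3 estimates, and the circle of Mcm10 lies lowest, at -1.12.

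The High libraries were also set against each other in the same fit, 1 library against 1, with the spread of the Low pair. None of the 9 members passed, where 10.9% of all genes did, and only Mcm9 had an unadjusted p under 0.05 (log2 difference 0.92 higher in High library 2, 95% interval 0.07 to 1.78, adjusted p = 0.189). Mcm2 was 0.60 higher in High library 2 on the log2 scale (95% interval -0.08 to 1.28), Mcm5 0.56 and Mcm7 0.42. Mcm6 was lower there, with a log2 difference of -0.40 (95% interval -1.06 to 0.27), as was Mcm8 at -0.57. For Mcm3 and Mcm10, High library 2 was higher by log2 differences of 0.39 and 0.48 (95% intervals -0.29 to 1.07 and -0.19 to 1.15), so these data do not show that the clones differ in these genes, nor that they are alike. For 3 of 9 members, Mcm2, Mcm6 and Mcm9, the High libraries lay on opposite sides of the Low pair, which held for 16.8% of all genes.

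The make-up of the ring mRNA was described as the share of each subunit in the summed FPKM of the 6. That sum was 601 and 554 FPKM in Low, against 443 and 519 FPKM in High, both High values being lower. Mcm3 made up 17.4% and 16.2% of it in Low, against 11.4% and 12.8% in High. Mcm4 made up 11.1% and 13.3% in Low, against 9.38% and 8.88% in High. Both shares were lower in High without overlap, and shares of 1 whole are tied, since any that is lower leaves others higher. Mcm6 took 31.3% in High library 1, against 19.1% to 22.9% in the other 3. Mcm7 stayed between 23.7% and 27.2%. The ratio of the highest to the lowest subunit was 2.34 and 2.09 in Low, against 3.34 and 3.06 in High.

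Set against the geometric mean of the other 5 subunits, the log2 ratio of Mcm4 was -0.64 and -0.32 in Low and -0.82 and -0.99 in High. The High libraries were lower with no overlap (mean difference -0.42), a difference that is the same in CPM, since it does not depend on length. In FPKM the means were -0.48 ± 0.22 in Low and -0.90 ± 0.12 in High (SD, n = 2 each). The ratio was computed for Mcm4 only and is given as a description, with no p. A lower part of the ring mRNA in both High libraries was not particular to Mcm4, since the share of Mcm3 was lower too. The log2 ratio of Mcm6 to Mcm4 in CPM was 0.46 in each Low library, 1.41 in High library 1 and 0.87 in High library 2. The log2 ratio of Mcm2 to Mcm5 ran only from -0.22 to -0.07 over the 4 libraries.

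**Figure D3:**
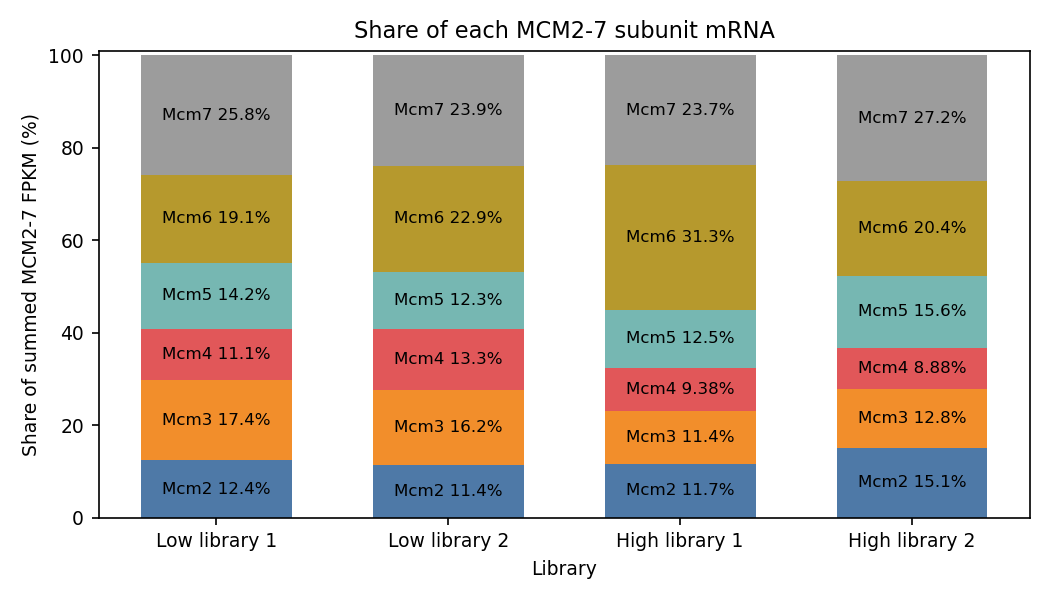
Share (%) of each ring subunit in the summed FPKM of Mcm2 to Mcm7, 1 bar per library. The segments of Mcm3 and Mcm4 are smaller in both High libraries, and that of Mcm6 reaches 31.3% in High library 1.

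Likeness between genes was measured as the Euclidean distance over the 4 libraries of log2 CPM (prior count 2) centred on each gene's mean, where 0 is an identical pattern. Among the 36 pairs of members, the closest were Mcm2 with Mcm5 (0.107), Mcm5 with Mcm7 (0.122), Mcm2 with Mcm7 (0.179) and Mcm3 with Mcm10 (0.264). Mcm4 was at 0.321 from Mcm3 and 0.326 from Mcm10. The farthest were Mcm8 with Mcm9 (1.15) and Mcm6 with Mcm10 (1.09). Among all genes tested, the 5 nearest to Mcm4 were the SUMO protease gene Senp3 (0.0295), the centriole assembly gene Sass6 (0.0445), the centrosomal gene Cep110 (0.0542), the growth factor gene Gdnf (0.0599) and the transcription factor gene E2f3 (0.06). The 5 nearest to the mean of the ring genes were Pdia6 (0.0308), Lap3 (0.0337), Cabin1 (0.0346), Ssh1 (0.0348) and the topoisomerase gene Top3a (0.0544). With 4 libraries, many genes have a like pattern, and these distances describe the libraries only.

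Genes with a start upstream of a member on the opposite strand, within 5000 bases, were looked up in GENCODE M21 (mm10). Tpra1, which encodes a transmembrane protein and starts 3471 bases from Mcm2, rose in both High libraries, from 25 and 17.9 to 81.4 and 92.3 CPM (4.05-fold, edgeR adjusted p = 0.012, range over 13 alternatives 2.99e-11 to 0.517). Mcm2 did not share that difference (log2 fold change -0.07). Without Low library 1 or Low library 2, where edgeR called 0 genes in all, the call of Tpra1 was lost (adjusted p = 0.427 and 0.517, log2 fold change 2.28 and 1.79). Prkdc, the catalytic subunit of the DNA-dependent protein kinase, starts 466 bases from Mcm4 and was at 15.7 and 22 CPM in Low, against 15.1 and 14.7 CPM in High (adjusted p = 0.609). Trmt6, a tRNA methyltransferase subunit, starts 86 bases from Mcm8 and was at 102 CPM in each Low library and 73.2 and 81 CPM in High (adjusted p = 0.377). The difference between the group effects of neighbours was not tested.

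**Figure D4:**
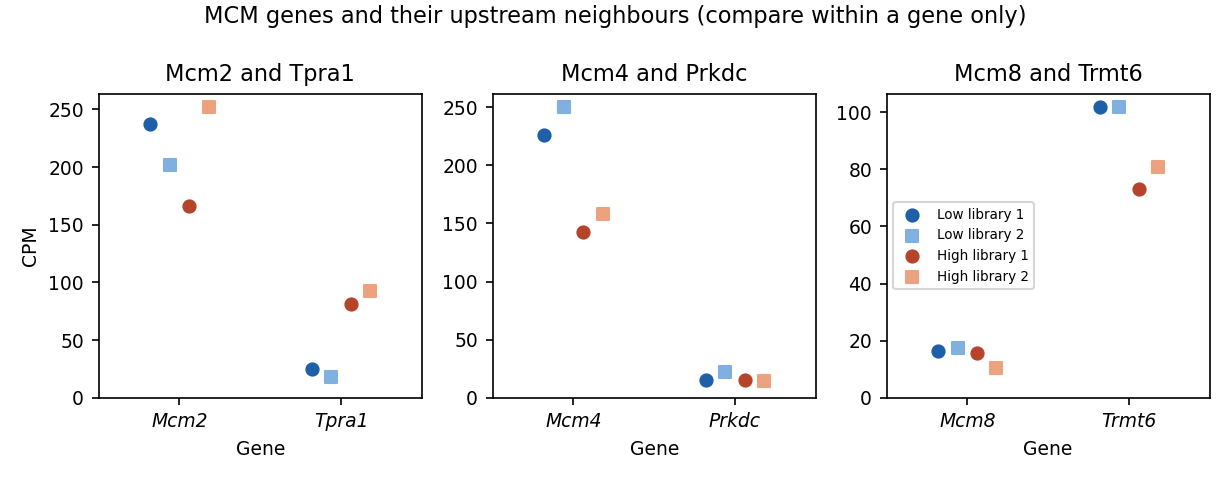
CPM of Mcm2, Mcm4 and Mcm8 and of the gene that starts upstream of each on the opposite strand, 1 point per library (blue, Low; red, High; circles, library 1; squares, library 2). The red points of Tpra1, at 81.4 and 92.3 CPM, lie above both blue points, while those of Mcm2 lie on either side.

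The origin licensing genes, which load the ring or, for Gmnn, inhibit a loader, were lower in High by their estimates. Of 9 origin licensing genes, 0 passed edgeR's test over all genes (2.47% of all genes did) and 0 passed with DESeq2 (8.75%). At an unadjusted p under 0.05 in edgeR, 3 were lower in High, against 8.16% of all genes. All 9 log2 fold changes were below 0, against 47.8% of all genes, and 7 to 9 were so under the alternatives (7 without Low library 2). Orc3, named after its values were seen, was at only -0.0057, with its High libraries on opposite sides of the Low pair. The median was -0.42 against 0.03 over all genes, and -0.25 without High library 1. Both High libraries lay below both Low libraries for 6 of the 9, against 25.1% of all genes. Orc2 and Orc4, subunits of the origin recognition complex, had log2 fold changes of -0.53 and -0.61, and Gmnn, the inhibitor of CDT1, of -0.64 (adjusted p = 0.266, 0.268 and 0.272). The loaders Cdc6 and Cdt1 had log2 fold changes of -0.26 and -0.42. Gmnn and Cdt1 passed without High library 2 (adjusted p = 0.0158 and 0.0496), and Orc4 without High library 1 (0.0490).

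The genes that turn the loaded ring into an active helicase were mixed. Of 13, 0 passed (2.47% of all genes did), and 3 were lower at an unadjusted p under 0.05, against 8.16% of all genes. There were 9 estimates below 0 (47.8% of all genes) and 4 above. The median of -0.34 ran from -0.49 without Low library 1 to -0.22 without High library 1. Both High libraries lay below both Low libraries for 7 of the 13 (25.1% of all genes) and above them for 1 (25.9%). Recql4, a RecQ-family helicase that takes part in initiation, was at 36.1 and 26 CPM in Low, against 12.9 and 17.8 CPM in High (log2 fold change -1.01, adjusted p = 0.156). Mtbp, a partner of the initiation factor TICRR, had a log2 fold change of -0.65 (adjusted p = 0.225). Cdc45, which joins the ring in the active helicase, was at 81.2 and 82.2 CPM in Low, against 50.8 and 64.2 CPM in High (log2 fold change -0.51, adjusted p = 0.304). The subunits of the GINS complex, the other part of that helicase, did not go one way: Gins1 had a log2 fold change of -0.86, Gins2 of 0.39, Gins3 of 0.34 (-0.011 without High library 1) and Gins4 of 0.13. Among the 13 alternatives, Gins1 and Recql4 passed in 1, without High library 2 (adjusted p = 0.00353 and 0.0029).

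Genes that act with or behind the helicase were then counted. Of 12 subunits of the replicative polymerases, 0 passed, where 2.47% of all genes did. Estimates below 0 numbered 7 (47.8% of all genes) and those above 5 (5 and 7 with scaling by library totals). Their median was -0.05 (0.105 without High library 1 and -0.29 without High library 2). Pold4, a small subunit of polymerase delta, was the 1 gene here at an unadjusted p under 0.05 in edgeR (18.1% of all genes). Pold4 was at 15.4 and 10.3 CPM in Low, against 21.2 and 60.1 CPM in High. It passed with DESeq2 (adjusted p = 0.0264) and without High library 1 (4.58e-11). Prim2, a primase subunit, and Pole4, of polymerase epsilon, had log2 fold changes of -0.33 and -0.44. Of 15 clamp, clamp loader and fork genes, 0 passed (2.47% of all genes) and 0 had an unadjusted p under 0.05 in edgeR (18.1%). Estimates were below 0 for 9 (47.8% of all genes) and above for 6, with a median of -0.17 (-0.31 without High library 2, -0.11 without High library 1). Both High libraries lay below both Low libraries for 8 of these 15 and for 2 of the 12 polymerase subunits, against 25.1% of all genes. They lay above for 1 gene in each list (25.9% of all genes). Pcna, the sliding clamp, was at 400.0 and 391 CPM in Low, against 285 and 323 CPM in High. Clspn and Tipin, which protect the fork, had log2 fold changes of -0.48 and -0.43.

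Other G1/S genes known as E2F targets were mixed. Of 18, 0 passed with edgeR in the main test (2.47% of all genes did). Cdca7 alone passed with DESeq2 (8.75% of all genes) and with no filter on low counts (4.88%). Estimates were below 0 for 11, against 47.8% of all genes, and above for 7 (9 and 9 with scaling by library totals). The median was -0.07 (-0.25 to 0.043 with 1 library left out). Both High libraries lay below both Low libraries for 6 of the 18 (25.1% of all genes) and above them for 2 (25.9%). At an unadjusted p under 0.05 in edgeR stood 4 lower, Cdca7, E2f3, Uhrf1 and Chaf1a (8.16% of all genes), and 1 higher, E2f2 (9.92%). Uhrf1 and Chaf1a were named after their values were seen. Cdca7 was at 125 and 117 CPM in Low, against 66.6 and 66.2 CPM in High (log2 fold change -0.87, adjusted p = 0.0829). None of the activator E2F genes passed in the main test or with DESeq2. E2f3 was at 76.7 and 88.2 CPM in Low, against 48 and 55.4 CPM in High, and E2f2 at 16.7 and 17.6 against 40.9 and 26.6 CPM. The log2 fold changes of E2f3 and E2f2 were -0.67 and 0.98, and -0.79 and 1.25 without High library 2. E2f1, added after its values were seen, was at 77.6 and 58.9 CPM in Low, against 38.4 and 58.5 CPM in High (log2 fold change -0.49). Mcmbp, which binds MCM subunits, was at 106 to 113 CPM in every library (log2 fold change 0.0054, and -0.0036 with RLE factors). Mcmdc2, a meiotic MCM relative, was at or below 0.407 CPM and was not tested, and Hrob was not matched to the table.

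**Figure D5:**
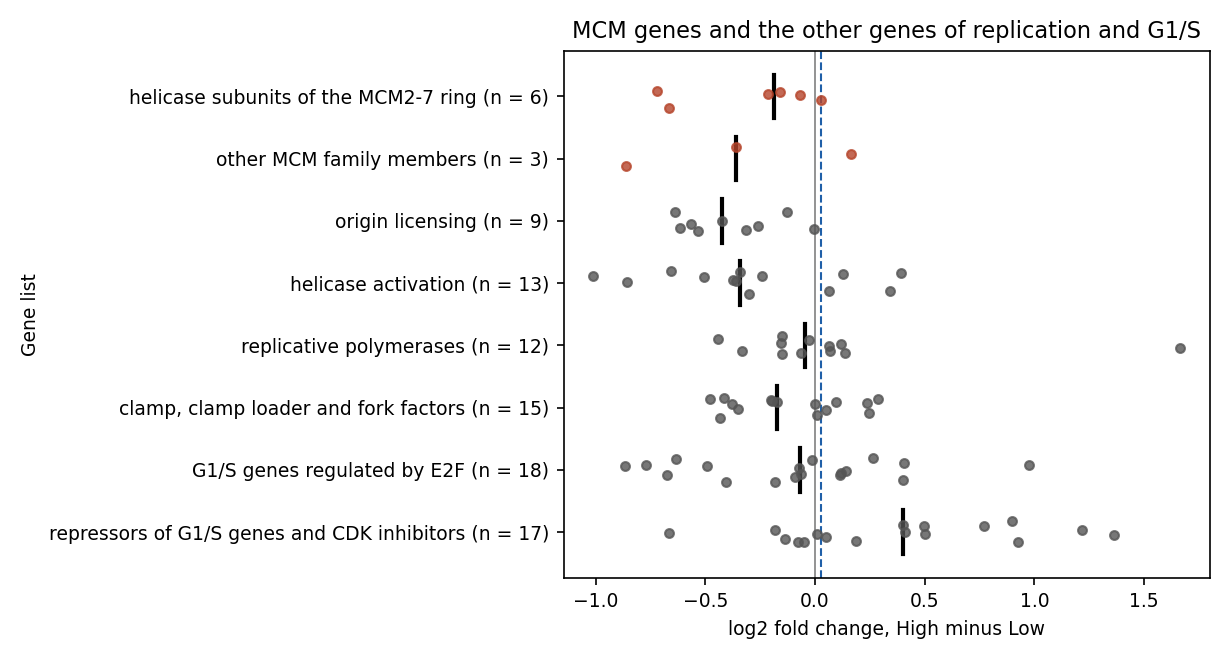
Log2 fold change (High minus Low) of each tested gene, 1 point per gene, by list; black bars are list medians, the dashed line is the median of all 12987 genes (0.03), and red marks the MCM genes. The medians of the origin licensing (-0.42) and helicase activation (-0.34) lists lie left of the ring's (-0.19), and that of repressors and CDK inhibitors lies right, at 0.40.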

How the data were processed

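Per the submitters' processing notes, cutadapt 1.5, TopHat2 2.0.13 and Cuffdiff 2.2.1 were used upstream with build mm10. Total RNA (500 ng per library) entered a directional preparation, per the labels' protocols. For the counting, neither annotation nor strand setting is given in the sources used here. In the deposited table are estimated counts of fragments per gene and library, of which 99.182% were whole within 1e-06. They were rounded for testing. The deposited scaled signal, the authors' fragments times a factor per library (0.729 to 1.46), was used only to recover those factors. The authors' FPKM were used for levels across genes. Columns of unknown origin numbered 0, and 11 genes with a failed status include 0 members.

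Groups were compared with edgeR 4.0.16 (quasi-likelihood F-test, two-sided; alternatives with limma 3.58.1 and DESeq2 1.42.0; R 4.3.3), using TMM, smallest count 10, Benjamini-Hochberg over all genes at 0.05, with 2 residual degrees of freedom. The fit with 3 groups had 1. Its spread rests on the Low pair. Between Low duplicates the biological coefficient of variation was 17.3%, between High libraries 42.4%. The Low duplicates differed beyond sampling noise (chi-square per degree of freedom 33.4) and were kept apart. Intervals from counts cover counting error only. Scripts were tested on simulated data. Alternatives were other scalings, filters (none, or smallest count 50), DESeq2, limma-voom, limma on log2(FPKM + 1) and log2(FPKM + 0.1), a replicate block and leaving out each library.

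The members and lists were chosen with earlier results of these data known. Named are the 9 members; in each list the genes called and the 3 with the smallest p; direct partners of the ring; the 5 genes nearest in pattern to Mcm4 and to the ring mean; upstream neighbours; and Arid1a. Of 96 list genes, 95 were matched by symbol. Sequences are from RefSeq. One leukocyte marker is not reported here.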

Additional observations from a re-analysis of the deposited data

How the results depend on the processing

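Over all genes, 321 calls became 814 with no filter on low counts and 1136 with DESeq2, and ran from 0 to 2475 with 1 library left out: 0 without either Low library, 2193 without High library 1 and 2475 without High library 2. Of the MCM members, 0 were called in the main test, 2 with DESeq2, and 0 to 2 with 1 library left out, the 2 being Mcm3 and Mcm10 without High library 2. Of the other pathway genes, 0 were called in the main test, 3 with no filter, 1 with a smallest count of 50, 5 with DESeq2, 1 with the replicate block, and 0 to 15 with 1 library left out. The other pathway genes tested numbered 85 (86 with no filter, 84 with a smallest count of 50). Of all genes, 2.47% were called in the main test and 4.88% with no filter. That share was 3.55% with a smallest count of 50, 8.75% with DESeq2 and 3.61% with the replicate block. In no setting was the share of these pathway genes called above that of all genes. The cause of the changes in calls was not tested. With the replicate number as a block, 469 genes and 0 members were called. The numbers are only names here, and deviations of same-numbered libraries correlated at -0.139.

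Signs turned for 4 members and for 2 partner genes. With 1 library left out, the log2 fold change ran from -0.41 to 0.20 for Mcm2, from -0.47 to 0.094 for Mcm5, from -0.18 to 0.21 for Mcm6, from -0.38 to 0.56 for Mcm9, from -0.049 to 0.055 for Mcmbp and from -0.011 to 0.62 for Gins3. Mcmbp was also at -0.0036 with RLE factors, -0.0034 with DESeq2, -0.0057 with log2(FPKM + 1) and -0.0060 with log2(FPKM + 0.1). Mcm7 in High library 2 against Low was at 0.031 with library totals. Library totals moved the median of all genes from 0.03 to 0.10. The medians of the polymerase and G1/S lists then stood at 0.02 and 0.0014. Estimates of Mcm3, Mcm4, Mcm7, Mcm8 and Mcm10 were below 0 in all 13 alternatives, but Mcm7 ran from -0.45 without High library 2 to -0.015 without High library 1, and Mcm8 from -0.67 without High library 1 to -0.11 without High library 2. Depth limits Mcm8 and Mcm9, with 127 to 478 fragments per library.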

Other observations

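A list put together as repressors of G1/S genes and CDK inhibitors was counted in the same way. Of its 17 genes, 0 passed edgeR's test over all genes (2.47% of all genes did) and 3 passed with DESeq2 (8.75%). At an unadjusted p under 0.05, 5 were higher and 1 lower (9.92% and 8.16% of all genes). The lower gene, named after its values were seen, was Lin9 (log2 fold change -0.66). There were 12 estimates above 0 and 5 below, where 47.8% of all genes were below 0. The median log2 fold change was 0.40 against 0.03 over all genes, and 0.16 without High library 2 and 0.17 with log2(FPKM + 1). Both High libraries lay above both Low libraries for 8 of the 17, against 25.9% of all genes, and below them for 1, against 25.1%. Cdkn2a, whose locus encodes the CDK4/6 inhibitor p16 and the p53 activator ARF, was at 114 and 77.9 CPM in Low, against 247 and 199 CPM in High (log2 fold change 1.22, edgeR adjusted p = 0.0662, range over 13 alternatives 3.79e-05 to 0.830). Cdkn1a, which encodes the CDK inhibitor p21, was at 7.35 and 6.15 CPM in Low, against 15.7 and 19 CPM in High (log2 fold change 1.36, adjusted p = 0.0883). Cdkn2c, another inhibitor of the G1 kinases, was at 24.5 and 28.1 CPM in Low, against 46.1 and 51.9 CPM in High (log2 fold change 0.90, adjusted p = 0.115). With DESeq2 all 3 of these passed (adjusted p = 0.00169, 0.0104 and 0.0241). Cdkn2a and Cdkn1a also passed with no filter on low counts (0.00531 and 0.0416) and with either High library left out, where the Low pair alone gives the spread. Without Low library 1 or 2, where the High pair gives it, they did not (Cdkn2a 0.615 and 0.830, Cdkn1a 0.698 and 0.850), nor did Cdkn1a with the replicate block (0.158). Fragments of the transcripts of Cdkn2a are counted together, so p16 and ARF are not told apart.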
